A study of Arabidopsis thaliana with 4 samples.

Results

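Roots of Arabidopsis thaliana plants labelled CEPD2ox were compared with roots of wild-type (WT) plants on 2 of the 4 arrays of the study, 1 array for each genotype. The comparison was defined by the labels and covers every array row that names 1 gene, which left 16548 genes from 16722 such rows, out of 38408 rows in all. Where a gene had several rows, the row with the highest mean over the 4 arrays was taken. The CEPD2ox name marks overexpression of CEPD2 (AT2G47880). The promoter that drives it, the number of independent lines and whether roots of several plants were pooled are not stated in those sources that were used here. WT was the accession Columbia. The other 2 arrays came from plants labelled CEPDL2ox and CEPD1ox. Every genotype had ample nitrogen: seedlings 7 d old were placed on medium holding NH4Cl and KNO3, each at 10 mM, and 0.5% sucrose. Their roots were taken at 14 d, under continuous light and 22 °C. With 1 array per genotype nothing was replicated and nothing could be tested, and every difference below is that between 2 arrays.

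CEPD polypeptides are small glutaredoxin-like proteins of class III, a class found in plants. They are made in shoot vascular tissue when roots sense a lack of nitrogen, travel through the phloem to the root and raise high-affinity nitrate uptake there. CEPH is a type 2C protein phosphatase of the root that removes a phosphate from the nitrate transporter NRT2.1 and so activates it. The comparison addresses which root transcripts differ when this signal is overexpressed without nitrogen shortage. NRT2.1 had no row with a name of its own and was not analysed here.

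Values are log2 signals as deposited. They ran from 0.431 to 13.8 over all rows and arrays, and the median over all rows was 5.13 in CEPD2ox and 5.16 in WT. Across all rows Pearson's r between both arrays was 0.984, over rows that are not independent replicates. A difference is the CEPD2ox signal minus the WT signal, so 1 on this scale is 2-fold. Genes were divided by the mean of their CEPD2ox and WT signals at 5.13, the median of that mean over all rows. This placed 8000 genes at or above the median and 8548 below it. The median difference was -0.01 over the 8000 genes and 0.02 over the 8548. Signals near background understate differences in RNA, and fewer cells of a type and less RNA per cell cannot be told apart in whole roots.

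CEPD2 itself separated the CEPD2ox array from all others. Its log2 signal was 9.22 in CEPD2ox, 1.32 on the array labelled CEPD1ox, 1.42 in CEPDL2ox and 1.41 in WT. The difference from WT, 7.82, was the largest of all genes and corresponds to 225-fold. The 3 arrays without this transgene lay within 0.096 of each other, at a level near the lowest signals of the array. CEPD2 passed the median only through its CEPD2ox signal.

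The other members of the family gave no such signal in CEPD2ox. CEPDL2 (AT3G62960) had a log2 signal of 3.51 in CEPD2ox and 3.46 in WT, a difference of 0.06, and CEPDL1 (AT2G30540) had 1.75 in CEPD2ox and 1.62 in WT. CEPD1 (AT1G06830) was at 2.19 in CEPD2ox and 2.66 in WT. On the array labelled CEPD1ox, CEPD1 reached 3.04, so its overexpression was not seen there, and values from that array are named as those of the array labelled CEPD1ox throughout.

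CEPH (AT4G32950) had a log2 signal of 5.87 in CEPD2ox, 5.45 on the array labelled CEPD1ox, 7.51 in CEPDL2ox and 3.67 in WT. CEPD2ox exceeded WT by 4.62-fold, second after AT2G16535 among the genes below the median that were higher. The CEPD2ox signal lay between those of CEPDL2ox and the array labelled CEPD1ox, and WT was the lowest of the 4 arrays. Of 24 type 2C phosphatase genes listed, 4 had a row, CEPH among them, and the others with a row differed little. POL, a regulator of stem cell maintenance, was at 7.92 in CEPD2ox and 8.16 in WT, and PIA1 was at 6.81 in CEPD2ox and 6.83 in WT.

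Of the 17 other class III glutaredoxin genes listed, 16 had a row, and in all of them the mean signal was below the median. Their median difference was 0.39, against 0.02 over all genes below the median. At least 2-fold higher were 3 genes, where 0.959% of all genes below the median were. These were ROXY2, AT3G62950 and AT4G15670. ROXY2, which acts with ROXY1 in anther development, was at 3.61 in CEPD2ox and 2.06 in WT. AT3G62950 was at 2.30 in CEPD2ox and 1.19 in WT, and AT4G15670 was higher by 1.04. ROXY1 did not share this difference, with 3.18 in CEPD2ox and 3.24 in WT. AT2G47870, the gene next to CEPD2 on the chromosome, was at 4.52 in CEPD2ox, 4.23 on the array labelled CEPD1ox, 4.49 in CEPDL2ox and 4.11 in WT. These genes are close paralogs of CEPD2, and whether their probes also take up CEPD2 transcript was not tested. ROXY2 was at 2.83 on the array labelled CEPD1ox and at 3.12 in CEPDL2ox, so CEPD2ox was the highest of the 4 arrays for it, by 0.49. WT was the lowest of the 4 arrays for ROXY2, by 0.76, and also for AT3G62950 and AT4G15670. Class III glutaredoxins are known to bind TGA transcription factors, but none of the 10 TGA genes listed had a row with a name of its own.

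**Figure D1:**
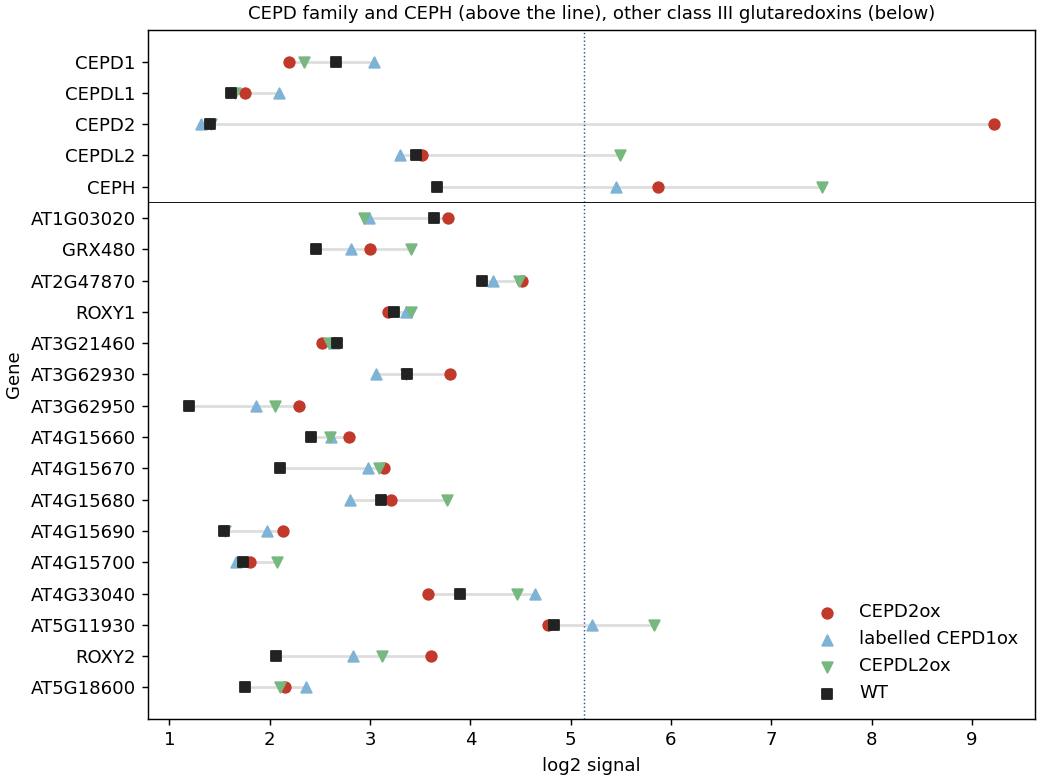
log2 signal (x axis) of the CEPD family and CEPH, above the line, and of 16 other class III glutaredoxin genes, below it, on each of the 4 arrays (1 point per array, no replicates); the dotted line is the median of 5.13. CEPD2 stands at 9.22 in CEPD2ox and between 1.32 and 1.42 elsewhere, while CEPH is lower in WT than on the other 3 arrays.

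At or above the median, 12 of 8000 genes (0.15%) differed at least 2-fold, 6 higher (0.075%) and 6 lower (0.075%) in CEPD2ox than in WT. With the arrays shifted to the same median, or after quantile or cyclic loess normalization, 9 were higher and 6 lower. Where both signals had to reach their array's median, 1 was higher and 4 were lower, since 5 of the 6 higher genes had a WT signal below the median and passed it only through CEPD2ox, and 2 of the 6 lower genes passed it only through WT. Over all rows of the array, with repeated rows counted once, a setting chosen after seeing the data, 28 were higher and 46 lower. That count comes from a larger set, and its share was not computed. Before repeats were removed, 8073 rows naming 1 gene, 444 naming several and 10687 naming none were at or above the median. Below the median, 138 of 8548 genes (1.61%) differed at least 2-fold, of which 82 were higher (0.959%) and 56 lower (0.655%). Most of these genes thus had weak signals. CEPDL2ox against the array labelled CEPD1ox, a pair that shares neither array with CEPD2ox against WT, had 16 of 8022 genes (0.199%) past 2-fold at or above the median and 175 of 8526 (2.05%) below it. These plants carry different transgenes, so that pair does not measure the error between like samples. The shares past 2-fold in CEPD2ox against WT were no larger than in that pair.

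The size of differences depended on signal level in both pairs. For genes with a mean signal below 3, the 99th percentile of the absolute log2 difference was 1.08 in CEPD2ox against WT and 1.14 in CEPDL2ox against the array labelled CEPD1ox. From the median to 7 it was 0.72 for CEPD2ox against WT and 0.77 for the other pair, and at 9 or above it was 0.48 for CEPD2ox against WT and 0.44 for the other pair. In the class from 3 to the median it was 1.11 for CEPD2ox against WT and 1.20 for the other pair. Below the median, more than 1 gene in 100 thus differed at least 2-fold in either pair. No gene at 9 or above passed 2-fold in either pair.

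**Figure D2:**
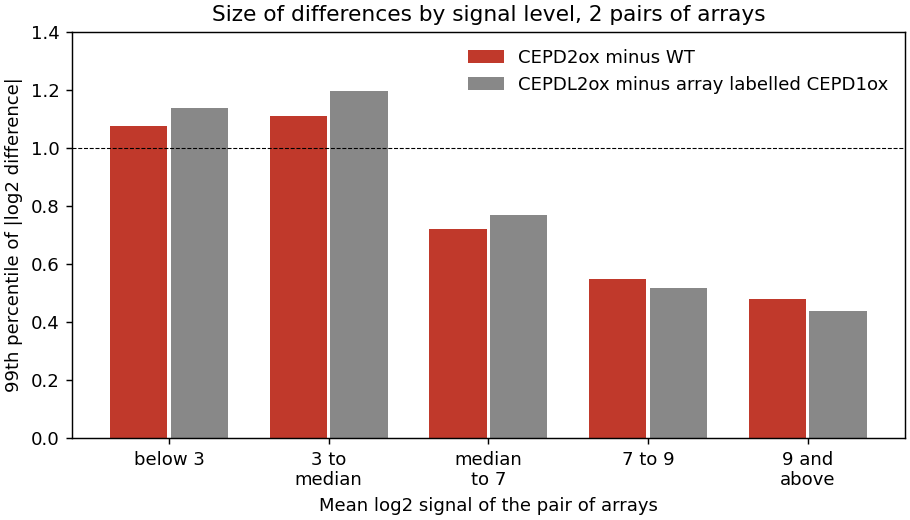
99th percentile of the absolute log2 difference (y axis) by the mean log2 signal of the pair (x axis), for CEPD2ox minus WT and for CEPDL2ox minus the array labelled CEPD1ox, 1 array each. In CEPD2ox minus WT the bars stand at 1.08 in the weakest class, 1.11 from 3 to the median and 0.48 in the strongest class, against 1.14, 1.20 and 0.44 in the other pair; the dashed line is 2-fold.

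**Figure D3:**
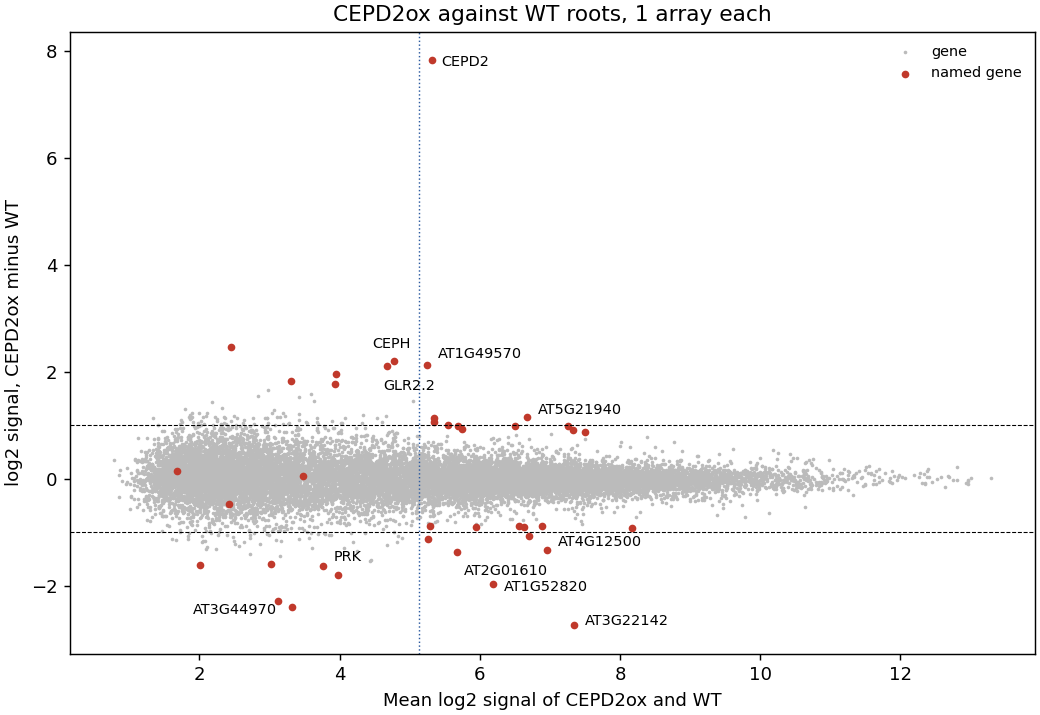
log2 difference CEPD2ox minus WT (y axis) against the mean log2 signal of both arrays (x axis) for 16548 genes (grey) and the genes named by rule (red). Dashed lines mark 2-fold and the dotted line the median of 5.13; CEPD2 lies at 7.82, and the spread narrows with rising signal.

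Among the 6 genes at or above the median that were at least 2-fold higher, the one after CEPD2 was AT1G49570, a class III peroxidase gene. Class III peroxidases are secreted enzymes that act on hydrogen peroxide and cross-link or loosen cell walls. Its log2 signal was 6.30 in CEPD2ox, 6.04 on the array labelled CEPD1ox, 6.65 in CEPDL2ox and 4.18 in WT, a 4.36-fold excess of CEPD2ox over WT. WT was the lowest of the 4 arrays for this gene, by 1.86. The next genes had no symbol or description in the tables used here and are given by locus.

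AT5G21940 had a different pattern. Its log2 signal was 7.25 in CEPD2ox and 6.11 in WT, and both remaining arrays lay below WT, CEPDL2ox at 6.02. CEPD2ox alone stood apart, 2.22-fold above WT. Apart from CEPD2 it was the only gene at or above the median that was at least 2-fold higher in CEPD2ox than on each of the other 3 arrays. The remaining 3 genes, AT5G59080, AT3G05770 and AT1G26720, had differences of 1.13, 1.05 and 1.01. In all 3 of them the signal in CEPDL2ox was higher still. AT5G59080, for example, was at 5.91 in CEPD2ox, 5.38 on the array labelled CEPD1ox, 6.39 in CEPDL2ox and 4.78 in WT.

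Just inside the 2-fold threshold stood AT1G26720 with a difference of 1.01, and just outside it AT2G30660 and AT3G60270, each with 0.99. AT2G30660 lies next to AT2G30670, a tropinone reductase-like gene. It was at 6.18 in CEPD2ox, 6.17 on the array labelled CEPD1ox, 7.47 in CEPDL2ox and 5.19 in WT. AT2G30670 was at 5.77 in CEPD2ox, 5.68 on the array labelled CEPD1ox, 7.70 in CEPDL2ox and 4.31 in WT. Both neighbours thus had the same order of arrays, with WT lowest and CEPDL2ox highest. AT4G32480, AT1G23650, AT2G38600 and AT5G35940 completed the 12 highest, with differences of 0.98, 0.93, 0.91 and 0.88. AT5G35940 and AT1G23650 were above all 3 other arrays, by 0.80 and 0.67 on the log2 scale. AT2G38600 was not, with 7.78 in CEPD2ox, 8.09 on the array labelled CEPD1ox, 8.36 in CEPDL2ox and 6.87 in WT.

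The largest lower difference belonged to AT3G22142, of the lipid-transfer protein and 2S albumin superfamily, small cysteine-rich proteins of which many are secreted to the cell wall. Its log2 signal was 5.97 in CEPD2ox, 5.71 on the array labelled CEPD1ox, 6.98 in CEPDL2ox and 8.71 in WT, 6.68-fold lower in CEPD2ox than in WT. WT was the highest of the 4 arrays for it, by 1.73. Its neighbour AT3G22150 had a weak signal and a difference of -1.26, but there CEPD2ox was the array apart. AT3G22150 was at 1.94 in CEPD2ox, 3.18 on the array labelled CEPD1ox, 2.86 in CEPDL2ox and 3.20 in WT.

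AT1G52820 was lower in CEPD2ox than on every other array. Its log2 signal was 5.20 in CEPD2ox, 6.92 on the array labelled CEPD1ox, 6.60 in CEPDL2ox and 7.17 in WT. It was 3.92-fold lower in CEPD2ox than in WT, and its CEPD2ox signal lay 1.40 below the lowest of the others. It was the only gene at or above the median at least 2-fold lower in CEPD2ox than on each of the other 3 arrays.

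AT2G01610 and AT4G12500 were 2.57- and 2.52-fold lower in CEPD2ox than in WT. AT4G12500 had 6.29 in CEPD2ox, 6.87 on the array labelled CEPD1ox, 6.58 in CEPDL2ox and 7.62 in WT. For both genes WT was the highest array, by 0.78 for AT2G01610 and 0.75 for AT4G12500. CEPD2ox was the lowest array, by 0.27 for AT2G01610 and 0.29 for AT4G12500. AT4G22350 followed at 4.70 in CEPD2ox and 5.81 in WT. AT1G15125, a methyltransferase gene of the SABATH family, whose members methylate small plant acids, was at 6.16 in CEPD2ox, 5.39 on the array labelled CEPD1ox, 5.47 in CEPDL2ox and 7.23 in WT. Its difference from WT was -1.07, yet CEPD2ox was higher than CEPDL2ox and the array labelled CEPD1ox. Against the mean of the 3 other arrays its difference was 0.13.

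The other 6 of the 12 lowest lay between -0.92 and -0.87. AT5G44400 encodes an enzyme resembling the berberine bridge enzyme. Of the 12 it had the highest mean of the CEPD2ox and WT signals, 8.17. It was at 7.71 in CEPD2ox, 7.36 on the array labelled CEPD1ox, 7.75 in CEPDL2ox and 8.63 in WT. The 3 arrays other than WT did not differ from each other by as much as from WT. In AT3G14540 and AT2G35810 the opposite held, and CEPD2ox was the array apart. AT2G35810 was at 4.85 in CEPD2ox, 5.65 on the array labelled CEPD1ox, 5.64 in CEPDL2ox and 5.72 in WT. Its neighbour AT2G35820, with a weaker signal, had a difference of -0.90, but there WT was the array apart. AT2G35820 was at 2.73 in CEPD2ox, 2.54 on the array labelled CEPD1ox, 2.82 in CEPDL2ox and 3.63 in WT. AT5G35732, AT1G44030 and AT1G65370 made up the rest. Over the 24 genes, the CEPD2ox signal was outside the range of the other 3 arrays in 14, and the WT signal was outside the range of the other 3 in 20. The genes were chosen as the extremes of CEPD2ox minus WT, so these counts describe them and support nothing.

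**Figure D4:**
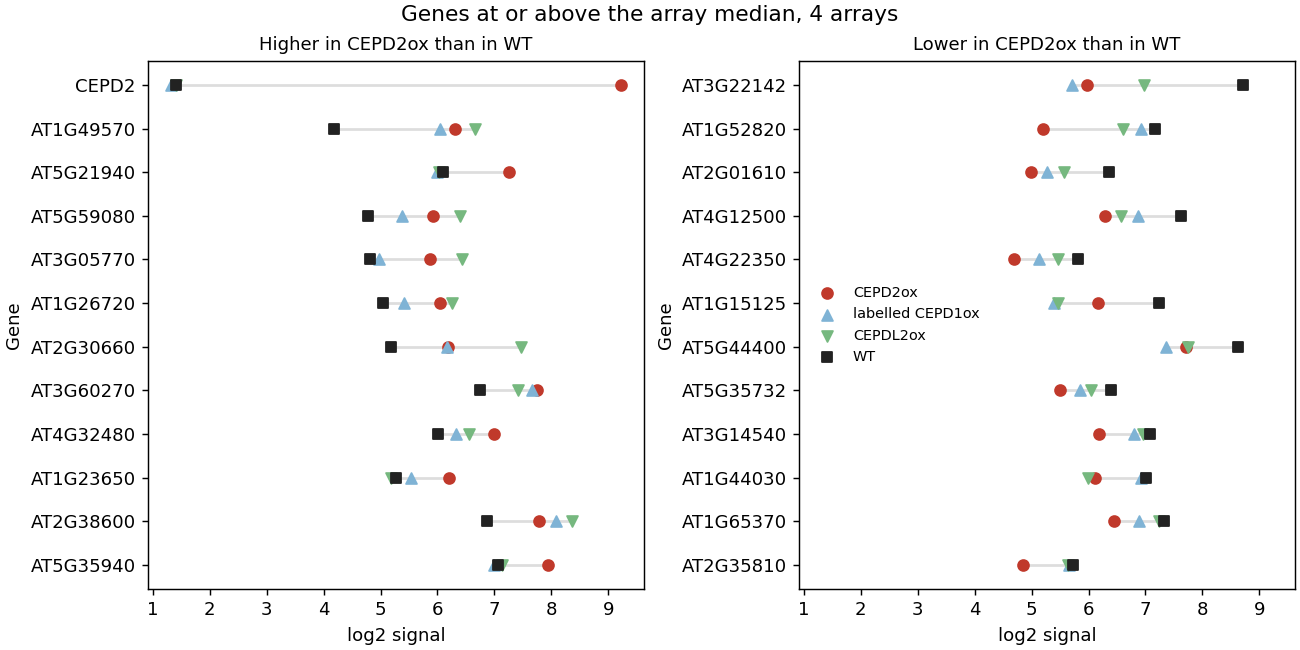
log2 signal (x axis) on each of the 4 arrays for the 12 genes highest (left) and the 12 lowest (right) in CEPD2ox minus WT among genes at or above the median, 1 point per array. In AT5G21940 and AT1G52820 the CEPD2ox point stands alone, while in AT1G49570 and AT3G22142 the WT point does.

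Genes in which CEPD2ox differed by at least 1.5-fold from each of the other 3 arrays were counted after the values were seen. There were 10 above and 8 below among the 8000 genes at or above the median. Beside those already given, AT5G61590 was among the higher genes. It encodes DEWAX, a transcription factor that represses wax biosynthesis, and it was at 5.88 in CEPD2ox, 4.58 on the array labelled CEPD1ox, 5.10 in CEPDL2ox and 5.16 in WT. AT3G15450 had 8.36 in CEPD2ox, 6.94 on the array labelled CEPD1ox, 7.22 in CEPDL2ox and 7.67 in WT. AT1G19530 had 6.62 in CEPD2ox, 5.62 on the array labelled CEPD1ox, 5.10 in CEPDL2ox and 5.89 in WT. In all 3 the WT signal was the highest of the other arrays. The 3 others above were AT1G76590, AT4G22212 and AT2G05510, with differences from WT between 0.60 and 0.62. Below were AT3G22550, AT4G34950, AT5G66830, AT4G12980 and AT1G13480, with differences from WT between -0.77 and -0.62.

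Below the median, the 6 highest were AT2G16535, CEPH, GLR2.2, AT4G08360, AT4G08430 and AT1G35625. GLR2.2 encodes a glutamate receptor-like channel, a family of plant cation channels gated by amino acids. It was at 5.72 in CEPD2ox, 5.36 on the array labelled CEPD1ox, 5.49 in CEPDL2ox and 3.62 in WT. Its chromosomal neighbour GLR2.3 was also higher, with 3.71 in CEPD2ox, 3.35 in CEPDL2ox and 2.42 in WT, and its highest signal on the array labelled CEPD1ox. WT was thus the lowest array for both neighbours. The other 8 channel genes of the list with a row had differences between -0.24 and 0.25, and GLR3.3, which carries wound signals in leaves, was at 6.72 in CEPD2ox and 6.60 in WT. AT2G16535, with 3.68 in CEPD2ox, 1.93 on the array labelled CEPD1ox, 1.65 in CEPDL2ox and 1.22 in WT, was high in CEPD2ox alone.

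The 6 lowest genes below the median were AT3G44970, AT5G28810, AT3G62510, PRK, AT5G52090 and AT1G64710. AT3G44970, a cytochrome P450 gene, was at 2.12 in CEPD2ox, 2.77 on the array labelled CEPD1ox, 3.18 in CEPDL2ox and 4.52 in WT. A relative of the protein disulfide isomerases, AT3G62510, was at 3.07 in CEPD2ox, 3.12 on the array labelled CEPD1ox, 2.94 in CEPDL2ox and 4.88 in WT. In all 6 the WT signal was the highest of the 4 arrays, by at least 0.98. In CEPD2ox none of them exceeded 3.07, and whether background limits the sizes of their differences was not tested.

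PRK encodes phosphoribulokinase of the Calvin cycle and belongs to a list of 22 genes of green tissue, of which 5 had a row. All 5 were lower in CEPD2ox than in WT, while 50.2% of all genes were higher. Only RCA was at or above the median. Only PRK passed 2-fold, and below the median 0.655% of all genes were at least 2-fold lower. PRK was at 2.94 in CEPD2ox and 4.58 in WT, and SBPASE, also of the Calvin cycle, was at 4.34 in CEPD2ox and 4.93 in WT. RCA, the Rubisco activase, was at 6.14 in CEPD2ox and 6.31 in WT. The antenna genes LHCB4.1 and LHCB4.2 differed by -0.06 and -0.14. The summed linear signal of the 5 genes was 144 in CEPD2ox, 114 on the array labelled CEPD1ox, 110.4 in CEPDL2ox and 183 in WT. Of 20 root tissue markers 2 had a row, both expansins of root hairs. EXPA7 was at 6.58 in CEPD2ox and 6.60 in WT, and EXPA18 at 8.14 in CEPD2ox and 8.24 in WT, so root hair transcripts were present on both arrays. The part of green tissue in the differences given above was not tested.

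Nitrate and peptide transporters of the NRT1/PTR (NPF) and NRT2 families move nitrate, peptides, hormones and glucosinolates across membranes. Of 36 listed genes 14 had a row and 9 were at or above the median. None of the 14 passed 2-fold. Their median difference at or above the median was -0.26, with 7 lower and 2 higher, against -0.01 over all 8000 genes, of which 52.2% were lower. AT1G68570 (NPF3.1) was at 5.52 in CEPD2ox and 5.97 in WT, AT1G33440 (NPF4.4) at 6.58 in CEPD2ox and 7.00 in WT, and GTR1, a glucosinolate transporter, at 7.01 in CEPD2ox and 7.38 in WT. AT1G59740 (NPF4.3) had a difference of -0.32. These sizes were all below 1.5-fold, the level that 130 of 8000 genes passed. NRT2.5, a high-affinity nitrate transporter of starved roots, had 2.57 in CEPD2ox and 1.99 in WT, both near background. Of 8 nitrate response regulators 3 had a row, the repressor genes AT3G25790, AT1G68670 and AT1G25550 of the HHO family. They differed by -0.25, -0.15 and 0.04.

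SWEET proteins carry sugars across membranes, and 16 of 17 SWEET genes had a row. SWEET13 and SWEET14, close relatives named here after their values were seen, were the 2 that passed 2-fold. SWEET13 was at 4.30 in CEPD2ox, 6.06 on the array labelled CEPD1ox, 5.40 in CEPDL2ox and 5.37 in WT. SWEET14 was at 3.34 in CEPD2ox, 4.61 on the array labelled CEPD1ox, 4.61 in CEPDL2ox and 4.40 in WT. In both, CEPD2ox was the lowest array by over 1, while the other arrays lay closer together. Both genes are below the median, where 0.655% of all genes were at least 2-fold lower. The vacuolar SWEET16 was at 7.03 in CEPD2ox and 6.50 in WT, and SWEET2 and SWEET17 differed by 0.15 and -0.02.

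Cell wall genes differed little, and their counts of lower members stand against 52.2% lower among all genes at or above the median. Of 23 expansin genes with a row, which loosen walls during growth, 12 were at or above the median and 10 of these were lower, with a median of -0.08. At or above the median the furthest were EXPA15, at 7.45 in CEPD2ox and 7.99 in WT, and EXPB3, at 9.50 in CEPD2ox and 9.98 in WT. EXPA8 and EXPA4 differed by -0.41 and -0.34, and no expansin passed 2-fold or 1.5-fold. Of 10 xyloglucan transglycosylase genes with a row, 5 were at or above the median and 3 of these were lower. XTH32 was at 4.85 in CEPD2ox and 5.68 in WT, the only member at or above the median past 1.5-fold, and XTH26 was at 5.85 in CEPD2ox and 6.22 in WT. XTH33 and XTH21 differed by -0.12 and 0.15. Trichome birefringence-like genes, of which several acetylate wall polymers, had 24 members with a row, none past 2-fold, and 10 of the 15 at or above the median were lower, with a median of -0.06. Among these 15, AT2G31110 differed most at -0.42, then TBL45 at -0.27, TBL36 at -0.22 and TBL32 at -0.17. Tubulin genes had a median of -0.24 over 6 with a row, with TUB1 at -0.40, TUB5 at -0.24, TUB7 at -0.23 and TUB6 at 0.14.

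Enzyme families showed no common direction. Of 8 class III peroxidase genes with a symbol or synonym for it, AT5G64120 was at 10.9 in CEPD2ox and 10.6 in WT, and Prx37 and PRXR1 differed by 0.07 and -0.03. AT5G66390 was at 10.2 in CEPD2ox and 10.2 in WT. The one past 2-fold was PRXCA, at 1.87 in CEPD2ox and 2.93 in WT, a weak signal where 0.655% of all genes were at least 2-fold lower. AT1G49570, given above as a class III peroxidase gene and 4.36-fold higher, is not among these 8. Of 240 cytochrome P450 genes listed by symbol, 24 had a row. Their median was -0.02, and CYP71B34 was the furthest at or above the median, at 6.55 in CEPD2ox and 6.01 in WT. CYP71B29 and CYP71B6 differed by 0.06 and -0.01. The 14 glutathione S-transferase genes had a median of -0.01, from GSTU20 at -0.37 and GSTL3 at -0.22 to GSTU28 at 0.22 and GSTU22 at 0.20 at or above the median. The 55 UDP-glycosyltransferase genes, which attach sugars to small molecules, had a median of -0.05, with UGT71B5 at 0.45, UGT72B3 at 0.38, UGT73B1 at 0.36 and UGT73B3 at -0.42. No member of the P450, transferase and glycosyltransferase lists passed 2-fold. AT3G44970, given above as a cytochrome P450 gene, is not in the P450 list and was 5.25-fold lower from weak signals.

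Of 9 beta-glucosidase genes at or above the median 7 were higher, with a median of 0.11, against 47.7% higher among all genes at or above it. Over all 24 beta-glucosidase genes with a row, 12 were higher and 12 lower, and the 2 past 1.5-fold were both lower. PYK10, the main beta-glucosidase of root ER bodies, was at 12.95 in CEPD2ox and 12.98 in WT. BGLU21 and BGLU22, close relatives of PYK10, were at 11.2 and 10.4 in CEPD2ox, against 10.8 and 10.1 in WT. BGLU46 and BGLU16 differed by 0.21 and 0.18. The jacalin-related lectin genes JAL34, JAL33, JAL31 and JAL22 differed by 0.35, 0.19, 0.10 and -0.02. JAL34, JAL33, JAL31, BGLU21 and BGLU22 were higher in CEPD2ox than on any other array, though all by under 1.5-fold. Of 32 serine carboxypeptidase-like genes, scpl38 and SCPL32 were at least 2-fold lower from weak signals, where 0.655% of all genes below the median were. At or above the median, scpl16 stood at 6.61 in CEPD2ox and 6.02 in WT, followed by scpl20 at -0.40, scpl35 at -0.32 and scpl42 at -0.32.

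Hormone, peptide and regulator genes differed little at or above the median. GH3.3 and GH3.1 encode enzymes that conjugate auxin to amino acids, and they differed by -0.21 each, with GH3.1 at 6.97 in CEPD2ox and 7.17 in WT. In CEPDL2ox GH3.3 was at 8.60. GH3.17 and the auxin synthesis gene YUC6 differed by -0.09 and -0.08, and 0 of 23 auxin genes passed 2-fold. Of 8 cytokinin response regulators with a row all were below the median, with RR21 at -0.88 and ARR15 at -0.79. Of 71 WRKY transcription factor genes listed, 7 had a row. The 5 at or above the median were all lower, where 52.2% of all genes were. They lay between -0.32 for WRKY20 and -0.04, with WRKY47 at -0.21, WRKY42 at -0.19 and WRKY6 at -0.13. The 2 below the median, WRKY22 and WRKY41, were higher, by 0.22 and 0.08. CLE41, a peptide gene of vascular development, was at 7.54 in CEPD2ox and 8.07 in WT, and CLE25 and CLE44 differed by -0.20 and -0.14. RALFL27 and RALFL31, of a family of secreted peptides, differed by 0.44 and 0.27, RALFL34 by -0.35 and RALFL32 by 0.11. Among 67 MADS-box genes AGL21, a root regulator, was at 6.62 in CEPD2ox and 6.31 in WT, AGL80, AGL30 and AGL18 differed by -0.27, -0.23 and 0.15, and the 2 past 2-fold, AGL86 and AGL43, had weak signals, where 0.959% of all genes were at least 2-fold higher.

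Of 83 defensin-like peptide genes, 4 were at or above the median. Their median over all 83 was 0.13, and LCR35 and LCR58 were at least 2-fold higher, with WT signals of 1.31 and 1.48. Over all genes below the median, the median difference was 0.02 and 0.959% were at least 2-fold higher. At or above the median, PDF2.1 differed by -0.38, PDF2.5 by 0.18, LCR69 by -0.18 and LCR68 by -0.12. Iron and copper deficiency genes, of which 7 of 21 had a row, did not share a direction. PYE, a regulator of iron deficiency responses, was at 6.46 in CEPD2ox and 6.57 in WT, AT1G47400 differed by -0.31, AT1G47395 by 0.18 and AT3G12900 by 0.40.

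**Figure D5:**
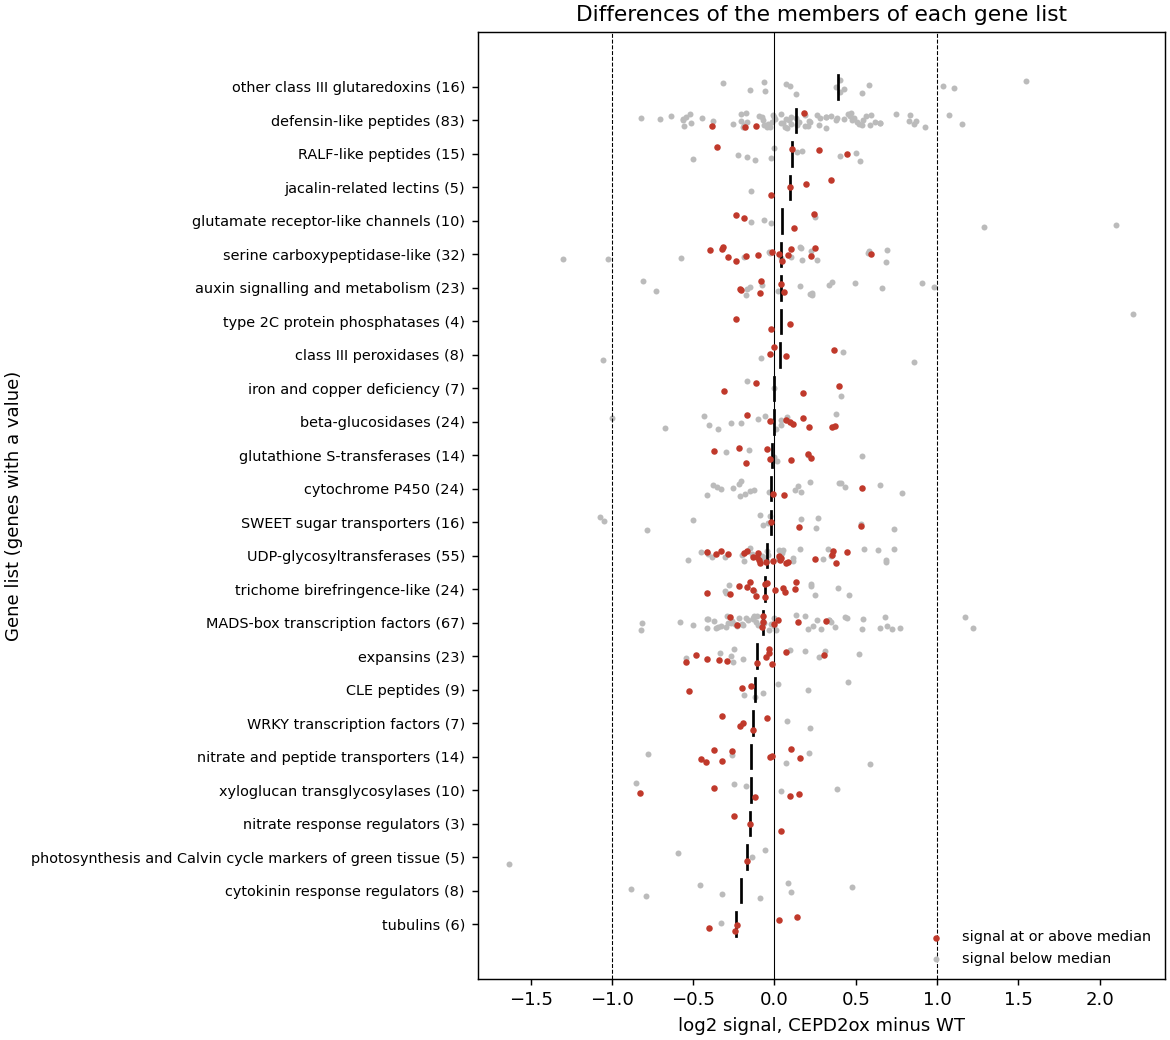
log2 difference CEPD2ox minus WT (x axis) for each gene of 26 lists with at least 3 genes that had a value, the CEPD family apart (number in brackets), red at or above the median signal and grey below; the black bar is the list's median over all its genes. Most points lie between the dashed 2-fold lines, and the class III glutaredoxins have the highest median, 0.39, from grey points only.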

How the data were processed

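The deposited table holds log2 signals per array row, made by the authors with Affymetrix Expression Console 1.3 from 100 ng of total RNA per array, per the submitters' processing notes and the labels' protocols. The summarization and normalization are not stated in the sources used, and log2 was inferred from the range of the values. No other scaling was applied. GEO's platform annotation named 1 gene for 16722 rows, several for 759 and none for 20927. Symbols were updated through the TAIR10.1 gene table, in which 16411 of 16548 genes were found. CEPD family names, CEPH and roles of loci without a symbol come from knowledge of the loci. No genome build is given, so no coordinates are printed, and no sequences were used here.

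With 1 array per group no test or error exists, and the number of arrays limits the precision. Members and the 29 gene lists were chosen with earlier results of these data known. Lists of gene families were formed from symbols and synonyms, and were rewritten and corrected after the values were in hand because the gene table holds no descriptions. The text names the CEPD family, CEPH, the 12 highest and 12 lowest genes at or above the median, the 6 highest and 6 lowest below it, and up to 4 genes per list (2 where none was at or above it). Other genes were named after their values were seen. Alternatives were other thresholds, filters, normalizations and references. Counting was tested on simulated data. Python 3.11.15, pandas 2.3.3, R 4.3.3 and limma 3.58.1 were used.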

Additional observations from a re-analysis of the deposited data

Results flagged for a closer look

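Among rows that name no gene, 2 had a signal far above that of WT. Rows that name no gene enter the results above only where all rows of the array are used. Row 13545557 was at 9.51 in CEPD2ox, 11.2 on the array labelled CEPD1ox, 11.2 in CEPDL2ox and 4.13 in WT, a log2 difference of 5.38 between CEPD2ox and WT. Row 13545469 was at 9.50 in CEPD2ox, 11.2 on the array labelled CEPD1ox, 11.1 in CEPDL2ox and 4.39 in WT, a difference of 5.11. Among such rows with a signal at or above the median, the next highest difference was 1.67 and the lowest was -2.15. After CEPD2, these are larger than that of any named gene. What these rows measure is not given in the tables used here. Both were high on the array labelled CEPD1ox, on which CEPD1 itself had a signal of 3.04.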

How the results depend on the processing

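At or above the median, the count of genes at least 2-fold apart, 12, was 15 with the arrays shifted to the same median, with quantile and with cyclic loess normalization, each with 9 higher and 6 lower; unscaled it was 6 and 6. It was 12 with a gene's rows averaged, 130 at 1.5-fold, 4 at 3-fold, 5 when both signals had to reach their array median (1 higher, 4 lower) and 1 at or above the 75th percentile. The last 2 settings remove genes, CEPD2 among them. Against the mean of the 3 other arrays it was 6, and over all rows, with repeated rows counted once and chosen after seeing the data, 74 (28 higher, 46 lower). The 74 come from a larger set, which includes rows that name several genes or none. Over all genes the count of 150 was 1096 at 1.5-fold, 18 at 3-fold and 62 against the mean of the 3 other arrays. Of 133 genes in the alternatives, 26 passed 2-fold. Against the mean of the 3 other arrays 15 of these fell short of it and AT1G15125 turned to 0.13. An offset of 16 on linear signals left 18 short of it. Each normalization brought 3 further genes past it. The median of 9 lists moved by over 0.1 against the mean of the 3 other arrays, and of 6 lists with members at or above the median only. The causes were not tested. No paired analysis was possible because each genotype has 1 array.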

Other observations

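Rows that name no gene were 20927, of which 6979 shared all 4 values with another row. At or above the median, 0.556% of the 8636 such rows with values of their own differed at least 2-fold between CEPD2ox and WT (16 higher, 32 lower), against 0.149% of the 8073 rows naming 1 gene. The genes behind them were not analysed here, so the named genes are a part of what the arrays measured.

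Neighbouring genes were compared over 10412 pairs of adjacent protein-coding genes of the TAIR10.1 table that both had a value. Both differed at least 1.5-fold in 76 pairs, in the same direction in 40 and in opposite directions in 36. Over all pairs 51.2% had the same sign. Both genes passed 2-fold in 5 pairs, not all of them in the same direction. Those in the same direction were GLR2.3 with GLR2.2, AT3G22142 with AT3G22150 and AT5G64395 with AT5G64401.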
